A study of Mus musculus with 16 samples.

Results

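The regions described here are 322 stretches of mouse chromatin that held a peak among the strongest peaks of C2C12iMyoD1 myoblasts more often in libraries without doxycycline (no dox) than in libraries with it (+dox), in growth medium (GM) and in differentiation medium (DM). They were chosen from ATAC-seq peak lists. From each of 14 lists the 14710 peaks with the highest −log10 p were taken, as many as the shortest list holds, and those that overlapped were merged into 26213 union regions. A region was kept when the share of libraries with such a peak was lower with dox in GM and in DM, and when the no dox libraries with a peak (of 7) outnumbered the +dox libraries (of 7) by at least 4. This gave 322 regions, or 1.23% of all union regions, while the mirror of the rule gave 372 regions (1.42%) that entered the lists with dox. Because the rule read the dox contrast itself, every dox value below is a description and carries no test.

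A working name for these regions, "lost with dox", goes beyond the data. A peak, inside the cut or past it, was still deposited at 2214 of the 2254 pairs of a region and a +dox library (98.2%), against 2176 pairs (96.5%) without dox, and 289 of the 322 regions held a deposited peak in all 7 +dox libraries. Over all union regions the shares of pairs were 95.8% with dox and 81.4% without, and 22719 of the 26213 held a peak in all 7. A deposited peak with dox is therefore not particular to the 322 regions. These left the strongest 14710 peaks. They did not, with few exceptions, stop being called as open. They are therefore called the outgoing regions below, and those of the mirror rule the incoming regions.

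C2C12iMyoD1 is a polyclonal population of the mouse myoblast line C2C12 with an integrated transgene for V5- and Halo-tagged MyoD1 behind a doxycycline-responsive promoter. Cells of all 4 groups carried the transgene and their own intact Myod1, and doxycycline induces the transgene in only part of the nuclei, so the +dox libraries mix expressing and non-expressing cells. GM no dox and GM +dox cells proliferated in serum-rich medium for 24 h with vehicle or doxycycline. DM no dox and DM +dox cells spent the same 24 h with the same treatments in DM. That medium holds less serum, from horse, and added insulin, transferrin and selenium, and the labels call it serum starvation. Seeding was 75000 cells per well for GM and 300000 for DM, so medium and seeding density cannot be told apart. Each group had 4 libraries. Replicate 1 of both DM groups was left out, as the study's methods did for quality, which leaves 4, 4, 3 and 3. The labels call the libraries of a group biological replicates. They do not say that these came from separate cultures on separate days, so spreads between libraries may in part be technical.

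MyoD1 is a basic helix-loop-helix factor that binds E boxes, short sites of the form CANNTG, of which CAGCTG is its preferred version, and it drives myoblasts into the muscle programme. Open chromatin away from promoters in fibroblasts and myoblasts is widely marked by sites for AP-1, the dimers of Fos and Jun proteins that respond to serum and growth factors, for TEAD factors, which act with YAP and TAZ, and for RUNX factors. A transposase in ATAC-seq inserts adapters where DNA is accessible, so a peak marks DNA that nucleosomes leave open, and a cell population gives the average over its cells.

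The sequences below show what lies under the summits of 7 outgoing regions. They come from 10 of the 12 regions whose rank fell furthest with dox. Each line gives 201 bases of the plus strand, 100 either side of the summit, in GRCm38 (mm10) with the sequence from RefSeq. Capitals mark CAGCTG, AP-1 (TGAGTCA or TGACTCA) and RUNX (TGTGGT or ACCACA) sites. Akap6, Hmga2, Ccl8 and Rdh10 are shown because they are the 4 of the 10 with an AP-1 site, Akap6 and Rdh10 because they are the only 2 of the 10 with CAGCTG as well, Cavin2 for its repeats, Rptor because it comes first, and Glis3 as 1 of the 3 that hold no marked site.
Rptor, chr11:119817532-119817732: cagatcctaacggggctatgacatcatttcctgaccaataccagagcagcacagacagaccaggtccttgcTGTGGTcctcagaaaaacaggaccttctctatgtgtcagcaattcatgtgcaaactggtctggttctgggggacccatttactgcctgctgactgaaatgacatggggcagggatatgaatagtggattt
Cavin2, chr1:51122329-51122529: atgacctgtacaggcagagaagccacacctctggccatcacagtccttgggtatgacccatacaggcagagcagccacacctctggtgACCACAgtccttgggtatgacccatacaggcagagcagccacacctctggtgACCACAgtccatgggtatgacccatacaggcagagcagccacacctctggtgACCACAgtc
Glis3, chr19:28558862-28559062: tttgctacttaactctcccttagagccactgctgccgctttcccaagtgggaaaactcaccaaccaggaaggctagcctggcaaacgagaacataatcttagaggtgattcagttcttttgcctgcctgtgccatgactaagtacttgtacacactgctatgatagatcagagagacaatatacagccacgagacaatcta
Akap6, chr12:52702354-52702554: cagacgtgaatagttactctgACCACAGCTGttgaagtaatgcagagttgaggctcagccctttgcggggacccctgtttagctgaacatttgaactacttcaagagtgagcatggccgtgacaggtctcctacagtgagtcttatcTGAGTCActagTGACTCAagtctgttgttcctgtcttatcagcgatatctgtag
Hmga2, chr10:120628193-120628393: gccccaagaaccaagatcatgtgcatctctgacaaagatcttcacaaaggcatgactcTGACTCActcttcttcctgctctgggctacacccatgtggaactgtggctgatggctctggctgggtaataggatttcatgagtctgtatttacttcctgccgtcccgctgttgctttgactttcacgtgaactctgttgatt
Ccl8, chr11:82116136-82116336: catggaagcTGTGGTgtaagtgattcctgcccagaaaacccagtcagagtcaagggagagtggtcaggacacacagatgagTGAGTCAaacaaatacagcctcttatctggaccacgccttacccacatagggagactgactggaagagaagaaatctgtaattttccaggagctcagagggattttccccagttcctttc
Rdh10, chr1:16109342-16109542: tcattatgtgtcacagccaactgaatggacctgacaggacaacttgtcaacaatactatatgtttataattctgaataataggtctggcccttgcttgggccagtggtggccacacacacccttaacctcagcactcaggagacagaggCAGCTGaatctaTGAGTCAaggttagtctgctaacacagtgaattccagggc

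In the Akap6 window a RUNX match starts at base 22 and runs into a CAGCTG at base 26, with AP-1 sites at bases 148 and 159. In the Rdh10 window CAGCTG starts at base 150 and an AP-1 site at base 162. The single AP-1 site of the Hmga2 window starts at base 59, and that of the Ccl8 window at base 82. The Cavin2 window is a tandem repeat, in which the RUNX match recurs at bases 89, 141 and 193, that is every 52 bases. Reads from such repeats can be hard to place, so values at this region are less certain than at the others.

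Without dox, 281, 263, 273 and 212 of the 322 regions had a peak among the strongest 14710 in GM replicates 1 to 4, and 265, 261 and 212 in DM replicates 2 to 4. With dox the numbers were 86, 101, 50 and 41 in GM and 32, 36 and 42 in DM. The means were 257 ± 31.1 (SD, n = 4) for GM no dox, 69.5 ± 28.6 (n = 4) for GM +dox, 246 ± 29.5 (n = 3) for DM no dox and 36.7 ± 5.03 (n = 3) for DM +dox, and the rule itself set these apart. Among +dox libraries the regions were kept more often in GM replicates 1 and 2 than in the other 5.

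**Figure D1:**
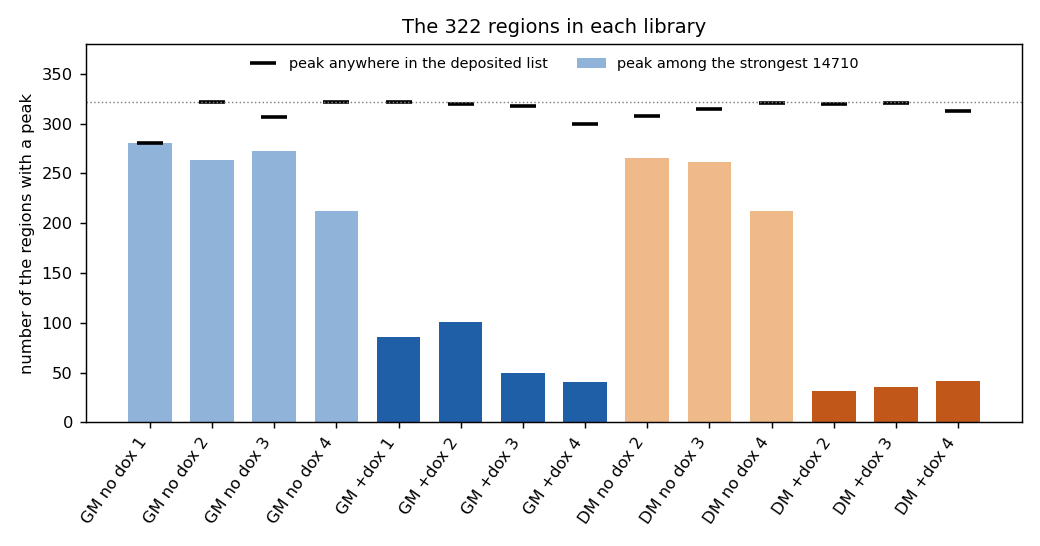
The number of the 322 outgoing regions with a peak in each of 14 libraries. Bars count peaks among the strongest 14710 (212 to 281 without dox, 32 to 101 with dox), and black dashes count peaks anywhere in the deposited list (281 to 322 without dox, 300 to 322 with dox).

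The deposited lists differed in length along with dox. They held 14710 to 49300 peaks in the 7 no dox libraries and 36531 to 58587 in the 7 +dox libraries, and the part of this difference in the choice of regions was not tested. The +dox library with the shortest list (GM replicate 4, 36531 peaks) held 41 of the regions in its cut list, while the 3 no dox libraries with longer lists than that (GM replicates 2 and 4 and DM replicate 4, with 39721, 49300 and 40599 peaks) held 263, 212 and 212. The difference was also present within replicate numbers 1 and 2 (mean 272 without and 93.5 with dox in GM) and within numbers 3 and 4 (242.5 and 45.5). The rule chose the regions by these same counts, so they cannot show what part list length or replicate number played. Background coverage, which each peak's statistics imply, was 0.339 to 1.13 fragments per base in the 14 libraries.

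The regions ranked lower with dox, while their unscaled fold enrichment overlapped. Where a peak was deposited, the median rank of the outgoing regions ranged from 8221 to 13444 over the no dox libraries and from 16575 to 19894 over the +dox libraries. The median fold enrichment over local background was 5.89, 13.4, 7.53 and 12.4 in GM no dox, 11.9, 12.8, 9.24 and 8.28 in GM +dox, 8.85, 8.27 and 11.9 in DM no dox, and 12.4, 10.6 and 10.8 in DM +dox. These ranges overlap in both media. The fold enrichment of the last peak inside the cut was 3.09 to 13.97 without dox and 9.43 to 20.4 with dox. GM no dox replicate 1 set the length of the cut, so its ranks end there and a region is either inside its list or without a peak.

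To set libraries of unequal enrichment side by side, the median fold of the outgoing regions was divided by the median fold, in the same library, of the 6068 regions with a peak in all 14 cut lists. On this relative scale the outgoing regions were at 82.9%, 76.7%, 72.1% and 76.3% in GM no dox and at 69.2%, 68.4%, 60.5% and 57.9% in GM +dox. In DM they were at 72.4%, 70.0% and 72.6% without dox and at 58.1%, 59.5% and 62.3% with dox. Every +dox library was below every no dox library on this scale, and the mean fell from 77.0 ± 4.44% to 64.0 ± 5.64% in GM (SD, n = 4 each) and from 71.7 ± 1.48% to 59.9 ± 2.13% in DM (SD, n = 3 each). All union regions together stood at 73.0% to 85.6% without dox and at 73.3% to 77.5% with it. The incoming regions ran the other way, from 54.6% to 77.1% without dox to 77.2% to 86.5% with dox. Both sets were chosen on this contrast, and the values say how large the chosen shifts were.

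**Figure D2:**
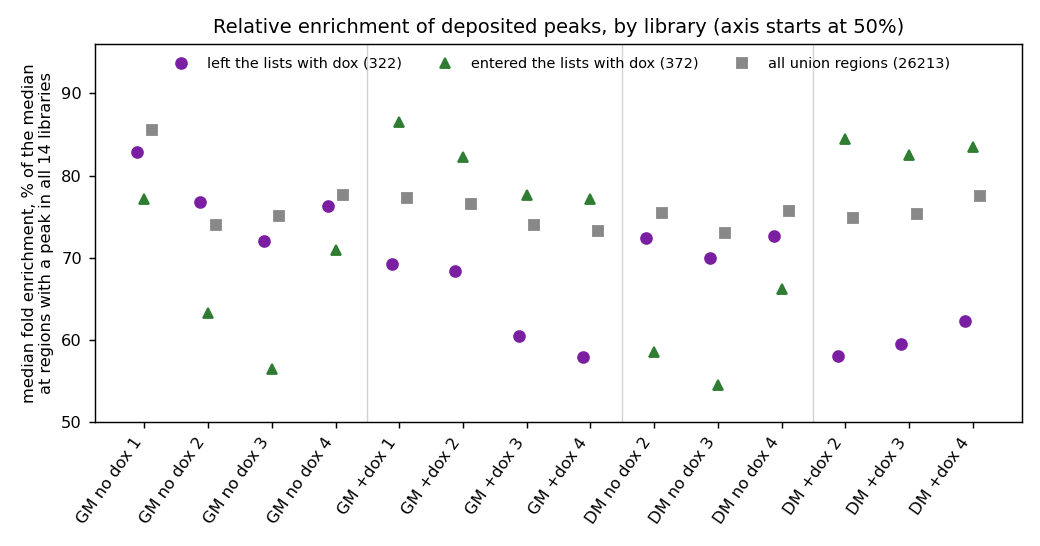
Median fold enrichment of deposited peaks in each of 14 libraries, as a percent of the median at the 6068 regions with a peak in all 14 cut lists, on an axis that starts at 50%. Circles are the outgoing regions (70.0% to 82.9% without dox, 57.9% to 69.2% with dox), triangles the incoming regions and squares all union regions.

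Of the outgoing regions, 231 had a deposited peak in all 14 libraries and so could be compared region by region. Relative enrichment was lower with dox in 222 of them (96.1%), where 55.5% of the 11011 such regions among all union regions were lower. Unscaled median fold was lower with dox in 54 of the 231 (23.4%), against 2.19% of the 11011. Even on the relative scale the 7 no dox and the 7 +dox values did not overlap in only 3 of the 231 regions, against 15 of the 11011, and on unscaled fold in none of either.

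No region had a peak in all 7 no dox cut lists and in none of the 7 +dox lists. The most common pattern was 4 no dox libraries against 0 +dox libraries (77 regions), followed by 5 against 1 (58), 6 against 2 (55) and 7 against 3 (52). Only 10 regions reached 6 against 0. A difference of exactly 4 libraries was held by 242 of the 322 regions, just inside the threshold, and 546 further regions that were also lower in both media had a difference of 3 and fell just outside. In the cut lists the regions just inside had a peak at 62.4% to 87.2% in no dox libraries and 11.6% to 33.5% in +dox libraries. Those just outside had one at 54.4% to 78.4% and 18.5% to 37.7%, so the threshold cuts through a continuum.

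**Figure D3:**
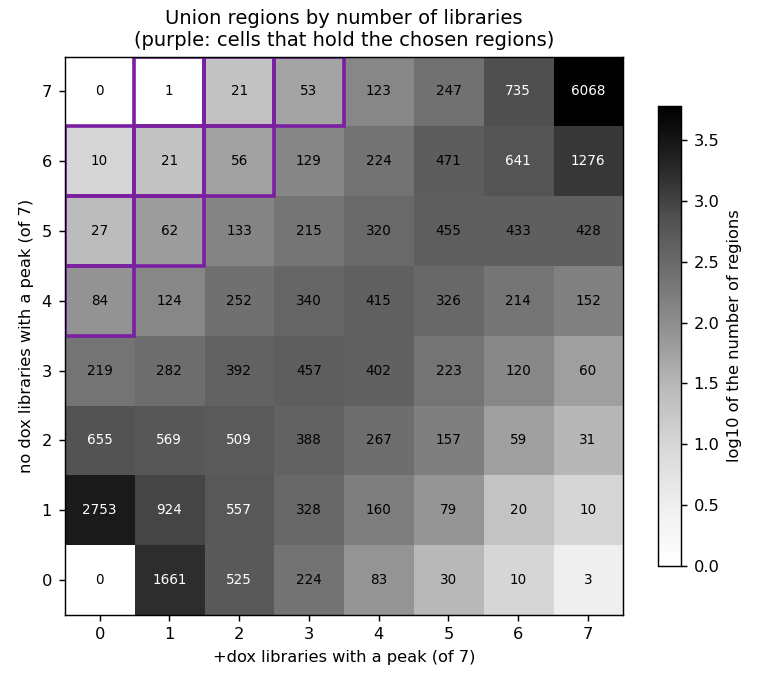
All 26213 union regions by the number of no dox libraries (vertical, of 7) and +dox libraries (horizontal, of 7) with a peak in the cut list; each cell gives a number of regions, shaded by its log10. Cells outlined in purple hold the 322 outgoing regions, which reach at most 3 +dox libraries, and the corner cell of 6068 regions holds those with a peak in every library.

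All-or-none patterns were counted in each medium. In GM, 12 of the 322 regions had a peak in all 4 no dox and none of 4 +dox lists, a pattern held by 0.124% of the regions with a peak in GM. In DM, 80 regions had a peak in all 3 no dox and none of 3 +dox lists, against 0.787% of the regions with a peak in DM. The rule used both contrasts, so nothing is read from these shares, and with 3 libraries per DM group an all-or-none pattern is easier to reach than with 4. Most outgoing regions were of middling strength before dox. Their median rank over the no dox libraries had quartiles of 10047 and 13247, and 18 of the 322 had a median rank in the upper 7355, the stronger part of the cut list. These values are not given for all union regions.

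By difference in mean rank score (1 for the strongest peak of a cut list, 0 for no peak), the regions that fell furthest lay near Dynap, Rptor, Serpinb1b, Glrp1, Mtdh, Cavin2, Glis3, Akap6, Jcad, Hmga2, Ccl8 and Rdh10. Each region is named after the nearest start site of a protein-coding gene, which is a label of position and does not say which gene it acts on. The differences in mean rank score ran from 0.51 (Dynap) to 0.42 (Rdh10). All but Hmga2 had a deposited peak in each of the 14 libraries.

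**Figure D4:**
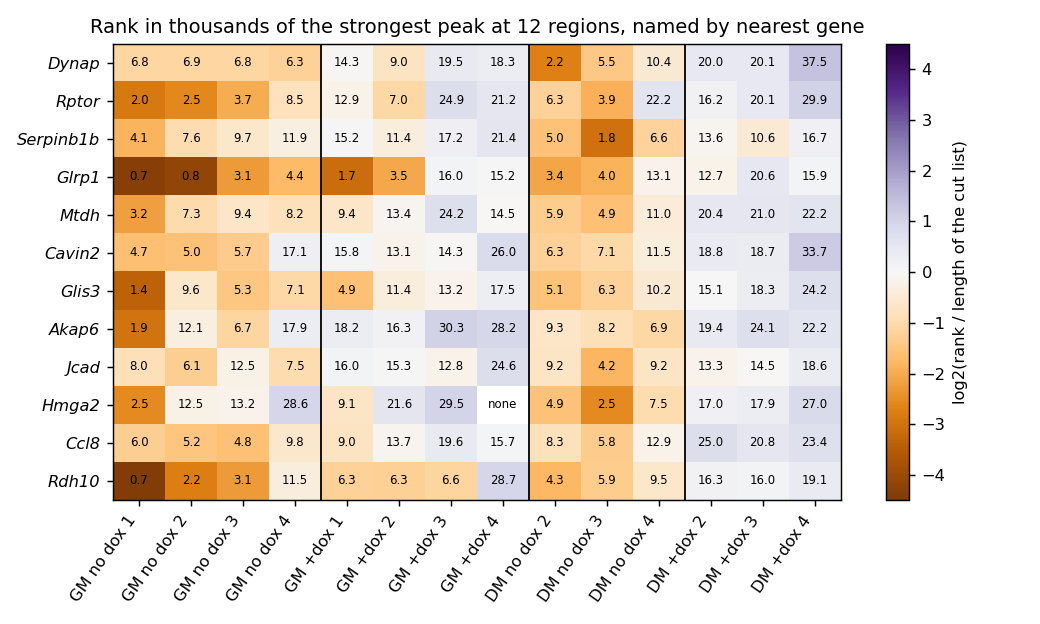
Rank (axis units of 1000) of the strongest deposited peak at the 12 regions that fell furthest, with 1 column per library; colour is log2 of the rank over the length of the cut list, so orange is inside the strongest 14710 and purple outside. DM +dox columns are mostly outside, while GM +dox replicates 1 and 2 stay inside at several regions such as Glrp1 (ranks 1718 and 3535).

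The region near Rptor, which encodes Raptor, the scaffold of the growth-controlling kinase complex mTORC1, lies in an intron of that gene (chr11:119817294-119818330). Its peak ranked 1995, 2462, 3716 and 8505 in GM no dox and 12863, 6973, 24866 and 21165 in GM +dox. In DM it ranked 6309, 3885 and 22236 without dox and 16241, 20070 and 29924 with dox. No dox and +dox libraries overlap in both media, through GM +dox replicate 2 and DM no dox replicate 4. The fold enrichment was 7.93, 19.1, 10.3 and 12.8 in GM no dox and 13.4, 17.8, 7.48 and 7.91 in GM +dox, and these ranges overlap.

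Akap6 encodes the anchoring protein mAKAP, which holds protein kinase A at the nuclear envelope of muscle cells, and 2 of the 6 union regions nearest to it were outgoing. The one that fell further, 3.07 kb downstream of a start site in an intron (chr12:52702088-52702846), had a peak in 6 no dox and 0 +dox cut lists. Its peak ranked 1885, 12079, 6724 and 17931 in GM no dox and 18157, 16304, 30321 and 28157 in GM +dox. In DM it ranked 9311, 8169 and 6943 without dox and 19407, 24087 and 22186 with dox, with no overlap between the DM groups and an overlap in GM through no dox replicate 4. Relative enrichment was 95.4% without dox and 63.0% with dox on average. The second region (chr12:52782848-52783326) had a peak in 7 no dox and 3 +dox lists.

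The region near Hmga2, a chromatin protein of proliferating embryonic and progenitor cells, lies 152 kb upstream of its start between genes (chr10:120627996-120628478). It ranked 2521, 12538, 13154 and 28616 in GM no dox and 9133, 21648 and 29489 in GM +dox replicates 1 to 3, and replicate 4 had no peak there. In DM it ranked 4919, 2506 and 7514 without dox and 16988, 17942 and 27033 with dox, so the DM groups are apart and the GM groups are not. The DM folds were 8.64, 11.4 and 12.5 without dox and 10.1, 9.15 and 7.49 with dox.

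Ccl8, a chemokine that attracts monocytes, had an outgoing region in its own intron, 1.05 kb past its start (chr11:82115755-82116552). Its ranks were 6034, 5224, 4798 and 9797 in GM no dox, 9029, 13669, 19589 and 15722 in GM +dox, 8293, 5791 and 12887 in DM no dox and 24987, 20832 and 23406 in DM +dox. The region near Rdh10, an enzyme of retinoic acid synthesis, is also intronic, 3.67 kb past the start (chr1:16109253-16109677). Its ranks were 674, 2192, 3088 and 11545 in GM no dox, 6300, 6258, 6631 and 28653 in GM +dox, 4341, 5912 and 9534 in DM no dox and 16299, 16031 and 19052 in DM +dox. At both the DM groups are apart, and at Rdh10 most of the GM +dox libraries kept the peak inside the cut. Glis3, a zinc finger factor of endocrine and kidney development, and Cavin2, a coat protein of caveolae, whose nearest region lies 167 kb away in an intron of Tmeff2, showed the same pattern by medium, with DM +dox ranks of 15065, 18278 and 24181 and of 18823, 18738 and 33653.

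Start sites were not the main place of these regions. The summit of 66 of the 322 (20.5%) lay within 1 kb of an annotated transcript start, where 39.5% of all union regions did, and 33.7% of the 7552 regions with a peak in 4 to 10 libraries, the range in which the outgoing regions fall. Of the 372 incoming regions 69 (18.5%) lay there, and 28.2% of the 546 regions just outside the threshold. A low share near starts was therefore not particular to the outgoing regions. One of the 12 above, Mtdh, lay 656 bp from a noncoding start. The further regions near starts with the largest differences lay at starts in or near Aldh3a1 (aldehyde dehydrogenase), Tmem107 (at the small nucleolar RNA gene Snord118), Zfp74, Clcn1, Piezo2 (at the noncoding gene Gm26972), Rreb1 and Pdgfc. Clcn1, the chloride channel of skeletal muscle membrane, had a peak in 6 no dox and 0 +dox lists. Its ranks were 9268, 12372, 4791 and 8816 in GM no dox, 14878, 17754, 19753 and 16700 in GM +dox, 15075, 11688 and 11413 in DM no dox and 24865, 23150 and 20244 in DM +dox, with no overlap within either medium. Its folds were 5.48, 11.1, 10.01 and 11.9 in GM no dox and 11.5, 10.54, 8.54 and 8.28 in GM +dox, and these overlap.

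Regulators of other mesenchymal lineages made up the largest share of outgoing regions among 11 gene lists that were counted. 8 regions (2.48% of the 322) lay nearest to a gene of this list, against 1.04% of all union regions and 2 of the 372 incoming regions, among them regions near Meis1, Meis2, Osr1, Prdm16, Prrx1, Runx3 and Sox9. Meis1 and Meis2 are homeobox cofactors of limb and heart development, Osr1 and Prrx1 mark connective tissue progenitors, Prdm16 directs brown fat, Sox9 acts in cartilage, and Runx3 in cartilage and T cells. The list was chosen with earlier results of these data known, and the counts are small.

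The Meis1 region, in an intron 107 kb past the start (chr11:18904936-18905763), had no peak in GM no dox replicate 1. Elsewhere it ranked 7675, 8365 and 14249 in GM no dox, 13581, 17586, 20199 and 18604 in GM +dox, 5657, 7389 and 7736 in DM no dox and 18612, 18071 and 22740 in DM +dox. The Meis2 and Sox9 regions gave less separation, since DM +dox replicate 4 ranked Meis2 at 13456 and DM no dox replicate 2 ranked Sox9 at 19981.

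Growth factor genes had 4 outgoing regions (1.24%, against 0.656% of all union regions and 1 incoming region), near the ligands Bdnf, Ereg, Fgf18 and Pdgfc. Those of Bdnf, a neurotrophin, Ereg, a ligand of the EGF receptor, and Fgf18 lay 4, 166 and 912 bp from a start of the gene. The Bdnf region ranked 12325, 11454 and 18002 in GM no dox replicates 1, 2 and 4 and 10870, 17688, 26392 and 17522 in GM +dox, which overlap. In DM it ranked 12385, 12782 and 14629 without dox and 24343, 25877 and 19965 with dox, which do not. Extracellular matrix genes had 4 regions (1.24%, against 1.19% of all), near Col4a6, Col6a3, Ltbp1 and Thbs1, and 7 incoming regions. At Thbs1, the matrix glycoprotein thrombospondin 1, the groups overlapped in both media, with ranks of 2966, 9790, 10013 and 10851 in GM no dox, 4032, 12446 and 22514 in DM no dox, 21927, 6666, 21865 and 15453 in GM +dox and 4812, 22403 and 16454 in DM +dox.

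Cell adhesion genes had 3 regions, near Fat1, Ncam1 and Vcam1 (0.932%, against 0.721% of all), and cell cycle genes had 3, near E2f2, Gas2 and Hmga2 (0.932%, against 0.488%). Vcam1, an adhesion receptor of myoblasts, had an intronic region (chr3:116113628-116114996) that ranked 20752, 13024 and 9686 in GM no dox replicates 2 to 4, 17881, 15929, 11788 and 15623 in GM +dox, 8019, 10158 and 13286 in DM no dox and 16649, 15183 and 19136 in DM +dox. The GM groups overlap, and the DM groups do not. Muscle structure genes had 1 region (0.311%, against 0.248% of all), near Itga7, the laminin receptor subunit of muscle. It ranked 6384, 15546, 12173 and 13779 in GM no dox, 17869, 23695, 17433 and 17077 in GM +dox, 14984, 9658 and 12395 in DM no dox and 27587, 26548 and 19817 in DM +dox, and the groups were apart in both media. The lists for AP-1 and immediate early genes (Klf5), Hippo, TEAD and actin genes (Lpp), TGF-beta and BMP genes (Inhba) and Wnt and Notch genes (Dkk3) had 1 region each. That is 0.311% of the outgoing regions per list, against 0.721%, 0.877%, 0.629% and 0.664% of all union regions, in that order. No outgoing region was nearest to a gene of the list of myogenic regulators and fusion genes, which 135 union regions (0.515%) and 2 incoming regions were.

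The 322 regions were spread over 312 nearest genes. 9 genes were nearest to more than 1 outgoing region, Asap1 with 3 of its 24 union regions and Adpgk, Akap6, Ppard, Slc1a4, Srgap3, Tex2, Tpd52l1 and Ttc7 with 2 each. Slc1a4, a transporter of neutral amino acids, and Tex2 had 2 of 4 union regions among the outgoing ones, and Tpd52l1 and Adpgk 2 of 3. Asap1, a regulator of ARF GTPases at focal adhesions, also had 1 incoming region, and 15 genes in all were nearest to both an outgoing and an incoming region. On the chromosomes, outgoing regions were 0.854% (chromosome 18) to 1.85% (chromosome 17) of the union regions.

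In sequence the outgoing regions had fewer E boxes of the CAGCTG type and more AP-1 sites than the union regions as a whole. Within 100 bp of the summit, CAGCTG occurred at 39 of the 322 (12.1%, 95% exact binomial interval 8.76% to 16.2%), at 18.4% of all union regions and at 35.5% of the incoming regions. The AP-1 site occurred at 135 (41.9%, interval 36.5% to 47.5%), at 28.8% of all and at 31.99% of the incoming regions. The TEAD core GGAATG occurred at 32 (9.94%), at 16.6% of all and at 31.2% of the incoming regions. Both strands were searched, no set test was made, and the intervals cover counting error only. AP-1 sites were at 8.39% of all union regions within 1 kb of a start and at 42.1% of those further away. Outgoing regions lay near starts less often, so the AP-1 gap over all regions is not separate from position. Away from starts that gap was smaller, as given below, and no interval was computed for it. A match is a description of the letters and not evidence of a bound factor.

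Among regions more than 1 kb from a start, AP-1 sites were at 48.4% of 256 outgoing regions, at 42.1% of all 15871 and at 42.4% of the 5006 with a peak in 4 to 10 libraries. CAGCTG was at 12.5%, 22.4% and 21.7% of the same sets, and the TEAD core at 11.3%, 21.6% and 21.2%. The E box CAGGTG followed CAGCTG (5.47%, 8.74% and 8.57%), while CATCTG was at 20.7%, 20.7% and 20.97%, so the shortfall was not shared by every E box. RUNX cores were at 32.8%, 31.7% and 32.4%. The SP site GGGCGG was at 4.69%, 7.99% and 7.89%, and the CTCF core at 0.781%, 2.74% and 2.46%. These are 12 and 2 outgoing regions, and the shortfall was thus not limited to E boxes and TEAD. Of the 322 regions, 117 held an AP-1 site without CAGCTG, 21 held CAGCTG without AP-1, 18 held both and 166 held neither. A MEF2 site was found at 1 region and a CArG box at none, and at 0.496% and 1.13% of all union regions, so these counts are too small to compare.

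**Figure D5:**
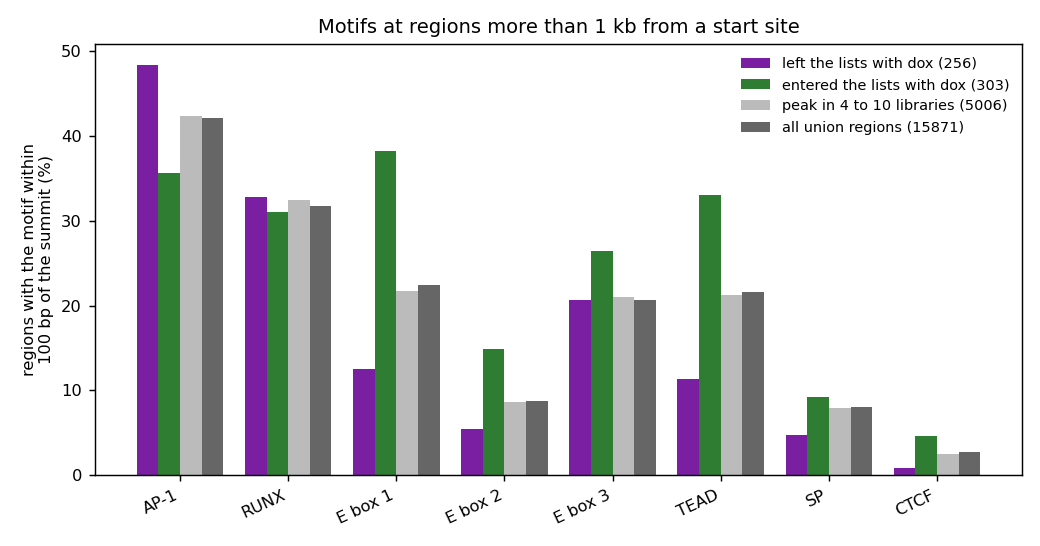
Percent of regions more than 1 kb from a start site with a motif within 100 bp of the summit, for outgoing, incoming, mid-breadth (a peak in 4 to 10 libraries) and all union regions. E box 1 is CAGCTG, E box 2 is the CAGGTG form and E box 3 the remaining form named above. The outgoing regions are lowest for E boxes 1 and 2, TEAD, SP and CTCF. They are highest for AP-1 (48.4%) and, by a small margin, for RUNX (32.8%).

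Outgoing regions lay a median of 7154 bp from the nearest start site, against 3502 bp for all union regions and 7770 bp for incoming regions. Their windows had a median GC content of 49.8%, against 54.2% for all and 53.2% for incoming regions, and they were 689 bp wide at the median, against 620 and 537 bp. By annotation, 148 summits (46.0%) were in introns and 135 (41.9%) between genes. At regions more than 1 kb from a start, the median GC content was 49.3% for outgoing, 50.2% for all and 51.7% for incoming regions.

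The 2 left-out libraries were not used by the rule. DM +dox replicate 1, with 14236 peaks and a background of 0.167 fragments per base, had a peak at 93 of the 322 outgoing regions (28.9%), at 193 of the 372 incoming regions (51.9%) and at 44.9% of all union regions. DM no dox replicate 1, with 1287 peaks in all, had a peak at 4 and at 2 of them (1.24% and 0.538%), against 4.77% of all union regions. With 1 library on each side and lists this unequal in length, these values allow no comparison of dox.

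The difference between media was not the contrast of the rule, but the rule read the same cut lists and favoured low +dox scores. The counts, estimates, standard errors (SE) and p-values of outgoing regions below are therefore a description. Where +dox scores were at or near 0, the averaged difference and its SE rest in part on values the rule favoured. The medium was tested with limma on the rank scores of all 26213 regions, as DM minus GM averaged over no dox and +dox (two-sided, adjusted p under 0.05). Of the 322 outgoing regions, 3 were higher in DM, where 1.29% of all regions were, and 2 were lower in DM, where 1.5% were. The shares of the outgoing regions were 0.932% and 0.621%. At an unadjusted p under 0.05, 13 were higher and 24 lower, as were 2246 and 2089 of all 26213 regions. In the no dox libraries alone, 5 outgoing regions (1.55%) were higher in DM, against 0.32% of all regions, and 1 (0.311%) was lower, against 0.21%. In the +dox libraries alone limma called 0 outgoing regions higher (0.37% of all regions) and 0 lower (0.305%), with 0 and 6 at an unadjusted p under 0.05 against 1352 and 1302 of all regions, and nothing is read from these counts because the rule chose regions with few +dox peaks.

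The 3 regions higher in DM lay near Ly96, Tril and Asap1. Ly96 encodes MD-2, the co-receptor of the Toll-like receptor TLR4, and Tril a further component of that receptor complex. At the Ly96 region (chr1:16790711-16791188), 103 kb from its start, the peak ranked 2318, 5184 and 4961 in DM no dox and 10950, 16264, 12459 and 20437 in GM no dox, while the 7 +dox libraries ranked it from 19381 to 29942. Its mean rank score was 0.72 in DM no dox and 0.10 in GM no dox, and the limma estimate was 0.31 ± 0.063 (SE, adjusted p = 0.022 by limma). The Tril region (chr6:53801624-53802520) had a mean score of 0.71 in DM no dox, 0.12 in GM no dox and in DM +dox and 0 in GM +dox (difference 0.36 ± 0.072, SE, limma adjusted p = 0.021). The Asap1 region at chr15:64331098-64331514 gave 0.52, 0.056, 0 and 0 in DM no dox, GM no dox, DM +dox and GM +dox (0.23 ± 0.050, limma adjusted p = 0.029).

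The 2 regions lower in DM lay in introns of Cit, the citron kinase of cell division, and of Ido2, an enzyme of tryptophan breakdown. At Cit (chr5:115852208-115852900) the mean score was 0.84 in GM no dox, 0.53 in GM +dox, 0.33 in DM no dox and 0 in DM +dox, with a difference of -0.52 ± 0.11 (SE, limma adjusted p = 0.032). At Ido2 (chr8:24573130-24573883) it was 0.63, 0.040, 0.037 and 0 in the same order, with a difference of -0.31 ± 0.067 (SE, limma adjusted p = 0.027). None of the 5 was called when log2 fold enrichment or the presence of a peak replaced the rank score, and with all 16 libraries Tril, Ly96 and Asap1 were not called (limma adjusted p = 0.223, 0.354 and 0.334). Leaving out 1 library in turn kept the call of Tril in 14 of 14 fits, of Ly96 in 13 (lost without GM no dox replicate 2), of Ido2 in 11 (lost without DM no dox replicate 4 or DM +dox replicate 3 or 4), of Asap1 in 7 and of Cit in 4. Serum amount and type, added insulin, transferrin and selenium, and seeding density changed together between the media, and their parts cannot be told apart.

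The labelled cell type was checked at marker loci, within 10 kb of gene starts. Of the myoblast markers, Myod1, Chrna1 and Met had a peak in the cut list of all 14 libraries, Itga7 in 12, Cdh15 in 10 (in 0 of 3 DM no dox libraries), Vcam1 in 6 and Pax7 in 5, while Myf5 and Des had none in any cut list. Markers of other cell types were not closed as a group. The fibroblast marker Dpt, the immune marker Cd68 and the adipocyte marker Pparg had a peak in all 14 cut lists, and the epithelial markers Krt8 and Cdh1 and the endothelial marker Pecam1 had a deposited peak in 14, 13 and 14 libraries. Epcam had a deposited peak in 0 libraries, and Ptprc, Cd3e and Kdr had one in 1 library each. The part of other cell types in the results was not tested. Peak lists give no read counts, so fewer open cells and less open chromatin per cell cannot be told apart at any region.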

How the data were processed

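ATAC-seq peaks were called in each library by the authors with MACS2 within nf-core/atacseq 2.1.2 on mouse build mm10 (GRCm38), and their lists hold peaks past a q-value of 0.05. The deposited values are the fold enrichment over local background (a ratio), the −log10 p and the −log10 q of each peak. Read counts were not used here. Of 16 libraries, 14 were used in the main analysis. Lists were cut to the strongest 14710 peaks by −log10 p, with ties at the cut broken by file order, and merged where they overlapped. The members, gene lists and tests were chosen with earlier results of these data known. Named members were the 12 with the largest difference in mean rank score, up to 8 further ones within 1 kb of a transcript start, and up to 3 further ones per gene list. Osr1, Prdm16, Prrx1, Runx3 and Ltbp1, the further genes near several members, and the 5 regions called between media were named outside that rule, after their values were seen.

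Gene starts came from GENCODE M21. Motifs were searched on both strands within 100 bp of the summit. The medium was tested with limma 3.58.1 (R 4.3.3) on the rank score, with 1 mean per group, a trend in the variance and Benjamini-Hochberg adjustment over 26213 regions. Scripts ran in Python 3.11.15 with numpy 2.4.6, pandas 2.3.3 and scipy 1.17.1, and were tested on simulated data. Background coverage was solved from the fold and p of the peaks. Alternatives were the ranking, list length, library set, threshold, window sizes, scale of the test, a replicate block and leaving out each library. Some loci are not reported here.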

Additional observations from a re-analysis of the deposited data

Results flagged for a closer look

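Among 86 groups of 4 libraries tested for an outlying library, 1 was found, and chance gives about 1 in 20 groups. The fold enrichment at the Thbs1 region was 19.8 in GM +dox replicate 2, where replicates 1, 3 and 4 had 11.0, 9.34 and 10.4, so that the gap to the nearest library took 0.839 of the range, past Dixon's limit for 4 samples.

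In the left-out libraries, 28.9% of the outgoing regions and 51.9% of the incoming regions had a deposited peak in DM +dox replicate 1. In DM no dox replicate 1 the shares were 1.24% and 0.538%. Over all union regions they were 44.9% and 4.77% in the same libraries. The lists hold 14236 and 1287 peaks, and the part of list length in these shares was not tested.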

How the results depend on the processing

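The choice of regions depended on the processing. The 322 outgoing and 372 incoming regions became 555 and 563 when peaks were ranked by fold enrichment, 152 and 170 with lists of 7355 peaks, 5 and 8547 with all deposited peaks, 80 and 104 with a difference of at least 5 libraries, and 868 and 981 with at least 3. With all 16 libraries the incoming regions numbered 693. Of the 322 regions, 130 (40.4%) overlapped a region chosen by fold, 11 (3.42%) one from lists of 7355 peaks, none one from all deposited peaks and 256 (79.5%) one from all 16 libraries. Leaving out 1 library gave 112 to 545 outgoing regions, 112 to 174 without a no dox library and 423 to 545 without a +dox library. An alternative added after seeing the data kept the difference at the same share of libraries and gave 176 to 274. Incoming regions ranged from 148 to 618.

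The share near start sites was 28.5% by fold, 27.6% with lists of 7355 peaks, 13.8% at 5 libraries, 25.3% at 3 libraries, 42.2% within 5 kb and 14.3% to 33.0% without 1 library. CAGCTG was at 17.1% by fold (interval 14.1% to 20.5%), 0% of the 5 regions from all deposited peaks and 9.68% to 15.2% without 1 library. The interval by fold includes the 18.4% of all union regions, which were merged from lists ranked by −log10 p. Within 50 bp CAGCTG was at 6.21%, against 10.4% of all union regions. Within 200 bp it was at 24.8% (interval 20.2% to 29.9%), against 29.1% of all, which that interval includes. AP-1 was at 20.0% with all deposited peaks and 34.6% to 48.2% without 1 library. It was at 27.3% within 50 bp, against 19.4% of all union regions, and at 52.8% within 200 bp, against 34.2%. The share of +dox pairs with a deposited peak was 99.3% by fold, 100% with lists of 7355 peaks, 14.3% with all deposited peaks, 87.1% with 16 libraries and 97.1% to 99.3% without 1 library.

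Between media, 732 regions and 5 outgoing regions were called by limma. The counts were 407 and 3 with 16 libraries, 446 and 0 with log2 fold enrichment, 618 and 0 with presence of a peak, and 439 to 1032 and 2 to 8 without 1 library. An exact permutation of the medium over 1225 labellings called 0 and 0, with a smallest possible p of 0.000816, and at an unadjusted limma p under 0.05 the outgoing regions numbered 13 higher and 24 lower, and all regions 2246 and 2089. A replicate block gave 806 and 5, and under the block Asap1 was not called (limma adjusted p = 0.074). Libraries of the same number deviated together, with positive correlations from 0.0618 (replicate 3 without dox) to 0.525, all but the lowest over 0.1. Since not every pair was over 0.1, the main fit did not take the numbers as pairs and ignores any deviation they share. The causes of these changes were not tested. Library depth was known only as background coverage.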
